A study of Arabidopsis thaliana with 6 samples.

Results

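The genes described here encode proteins of the cytosolic 40S ribosomal subunit of Arabidopsis thaliana. Their transcripts were compared between sorted G2/M cells and complete root meristems. The members were given as a list of 59 locus codes for 25 proteins, since most of these proteins are encoded by 2 or more paralogous genes. A member was kept when a probe set of the array mapped to it and to no other gene. Such genes of 14 of the 25 proteins, 29 of the 59 members, are described here, among 13355 genes with a probe set of their own. The array has 22746 probe sets besides its controls, and all of them entered the test. A further 11 members lay under 6 probe sets shared by several genes, and 15 are unnamed here and were not analysed. Of these 14 proteins, 11 have at least 2 paralogs described. For the other 3, RPS3, RPS13 and RPS20, 1 paralog was measured. The files and the gene table give these 29 loci by locus code only. Their assignment to proteins is from general knowledge of the Arabidopsis gene family, and the loci are written here as, for example, RPS24 AT3G04920.

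All plants were of accession Col-0. The G2/M cells (3 arrays) were sorted by fluorescence (FACS) from roots that express the reporter CYCB1;1-GFP, whose cyclin accumulates around mitosis. The complete root meristems (3 arrays) were microdissected. They hold cells of every cycle phase and tissue layer, and the labels name no reporter for them. Sorting and dissection differ in handling as well as in the cells taken, and the 2 cannot be told apart in this comparison.

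The 40S subunit binds the mRNA and decodes it, while the 60S subunit joins amino acids. Plant genomes keep several expressed genes for most ribosomal proteins. Ribosomal protein transcripts are abundant in dividing root tissue, where cells double their ribosomes between divisions.

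The values are log2 array signals from Affymetrix probe sets, and the deposited table runs from 2.27 to 14.2. Different probe sets bind their targets with different strength. An array value is therefore not an amount of transcript that can be set against that of a paralog, and the comparison between paralogs below is of how each one differed between the groups. Of the dividing-cell markers AUR1, AUR2, AUR3, BUBR1 and SCL28 (AT1G63100), 5 of 5 were higher in the sorted cells, by 1.86 to 2.73 log2, and the 4 histone H2B genes of S phase were all lower. With the replicate number as a block in the limma fit, 0 of the 5 markers and 1 of the 4 histone genes, HTB4, were called. Over all 22746 probe sets, the fit with the block called only 79 higher and 156 lower. Of 3 measured root cell type markers, both cortex genes were lower in the sorted cells, and 1 of them, AT1G09750, was also called with the block. The summed log2 value of the 3 was 8.74 to 13.90 in the sorted arrays, against 13.51 to 14.32 in the meristem arrays. The root hair gene EXPA7 stood at 7.07 in sorted replicate 1, against 2.42 and 2.69 in the other sorted arrays and 2.27 to 2.29 in the meristems. Sorted replicate 1 also carried poly-A spike-ins (mean 5.81), as did the meristems (6.24 to 7.27). Sorted replicates 2 and 3 showed means of 3.13 and 2.97 for them. All 6 measured heat shock and stress genes were higher in the sorted cells, by 3.20 to 5.36 log2, with summed values of 45.66 to 47.45 in the sorted arrays, against 21.80 to 23.06 in the meristem arrays, and 3 of the 6 were called with the block. Of 10 measured reference genes 1, PEX4, was called, at -0.54 log2 (limma adjusted p = 0.0220, 0.0990 with the block). The 25S ribosomal RNA control probe set read 13.10, 12.69 and 12.83 in the sorted cells, against 11.40, 11.29 and 11.32 in the meristems. The part that any of these has in the differences below was not tested. The lists of marker, histone and stress genes were chosen with earlier results of these data known. Their counts are therefore no independent check of the sort or of the handling. Of 12 listed dividing-cell markers, 5 were measured.

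The 40S transcripts were high in both groups and differed little between them. Mean array values over the 6 arrays lay between 8.01 and 13.37 with a median of 12.36, whereas the median over all probe sets was 3.78. Of the 29 members 22 stood above 12. The differences, sorted cells minus meristems on the log2 scale, ran from -0.05 to 0.34 with a median of 0.08. The median was 0.00 over all probe sets and 0.03 over those with a mean value above 11. The difference was smaller than 0.1 in either direction for 18 members and reached 0.3 for 1. It was above 0 for 22 of the 29 members, beside 41.6% of all probe sets and 57.8% of the probe sets with a mean value above 11. In a bulk sample, a lower share of cells that hold a transcript and less of it per cell cannot be told apart.

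A call here is an adjusted p under 0.05 in the limma fit over all probe sets, with Benjamini-Hochberg adjustment over all of them. By this rule 2 of 29 members (6.90%) rose in the sorted cells, beside 4.44% of all probe sets, and 0 fell, beside 7.06%. At an unadjusted p under 0.05, 9 members were higher and 0 lower. The share of all probe sets at that threshold was not computed, so no excess can be read from this count. With the replicate number as a block, 0 of the 29 were called, beside 79 higher and 156 lower of all 22746 probe sets. Among the 412 probe sets with a mean value above 11, where 26 of the members lie, 8.98% were called higher and 9.95% lower. The share of members called higher lay between that of all probe sets and that of the high ones.

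The 3 sorted arrays lay wholly above the 3 meristem arrays for 11 members (37.9%), beside 14.4% of all probe sets and 27.9% of those above 11. They lay wholly below for 0 members, beside 16.3% and 20.9%. Taking both directions together, the groups did not overlap for 11 members, beside 30.7% of all probe sets and 48.8% of those above 11. Set against the mean of the meristems, the median member stood 0.04 log2 higher on sorted array 1, 0.11 higher on array 2 and 0.09 higher on array 3. In replicate 2, 28 of 29 members lay above that mean, and in replicate 1 only 16 did. Replicate 1 was the lowest of the sorted arrays for 20 members, and replicate 2 the highest for 20. Without sorted replicate 1 the sorted arrays lay wholly above the meristems for 17 members. Groups of 2 and 3 arrays separate more readily than groups of 3, and the share over all probe sets was not computed here. In the same setting 3 other members were called higher, RPS3 AT5G35530, RPS7 AT1G48830 and RPS19 AT3G02080. Calls higher over all probe sets also rose, from 1009 to 1752. Without sorted replicate 2, or without meristem replicate 1, 2 or 3, 0 members were called. Over all probe sets these settings called 822, 360, 323 and 397 higher.

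**Figure D1:**
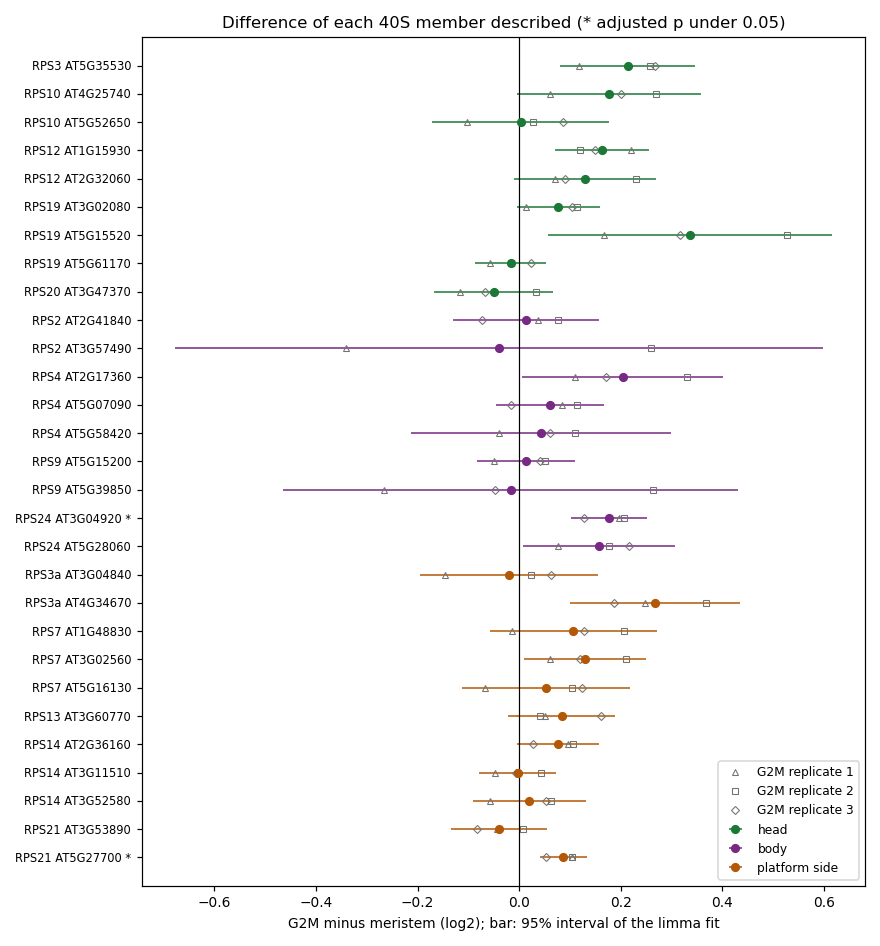
Difference of each of the 29 described 40S members between sorted G2/M cells and meristems (x axis, log2). Filled points are the fitted differences with their 95% intervals, coloured by the part of the subunit, and open symbols are the 3 sorted arrays against the meristem mean. RPS19 AT5G15520, at 0.34, has the highest difference of those shown, and the intervals of RPS2 AT3G57490 and RPS9 AT5G39850 are wide.

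The ratio between paralogs within an array is not changed by a constant shift of that array's values. For each of the 19 pairs of paralogs, the log2 ratio was compared between the groups with limma, adjusted over the 19 pairs. Pairs within a family of 3 share members. The ratio was called different for 0 of the 19 pairs, and 5 had an unadjusted p under 0.05. For 6 of the 19 pairs the ratios of the groups did not overlap. Among single probe sets, the groups did not overlap for 30.7% of all and 48.8% of those above 11. No such share was computed for ratios of other genes. With the replicate block 1 pair was called, RPS19 AT5G15520 and AT5G61170, and without sorted replicate 3 1 pair was called, that of RPS3a (-0.37 log2, adjusted p = 0.00595). The RPS3a change was -0.17 with array weights, where it was not called (adjusted p = 0.0583). Quantile normalization, which is not a constant shift and was tried on the ratios after seeing the data, gave 5 called pairs, among them that of RPS3a (-0.27, adjusted p = 0.0445).

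**Figure D2:**
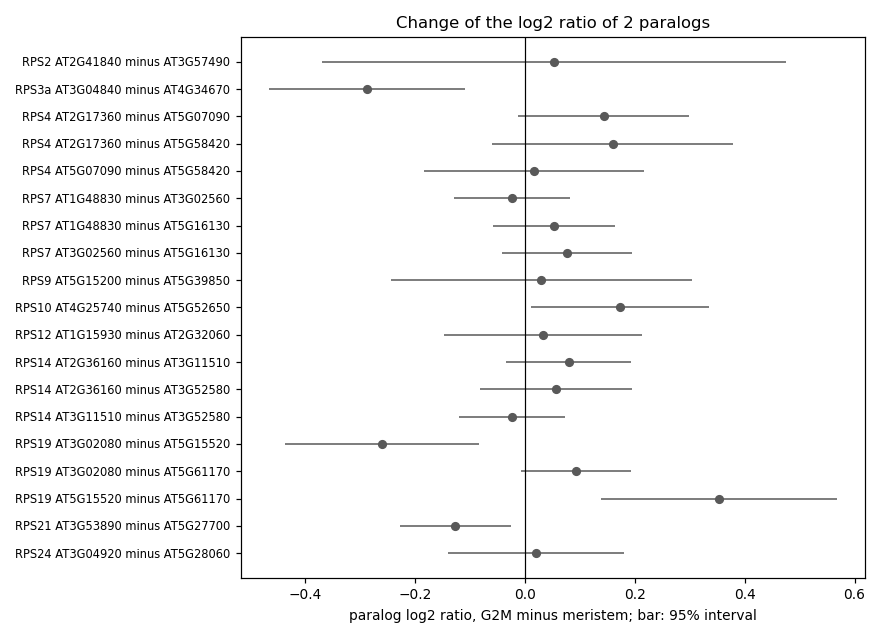
Change in the log2 ratio of each of the 19 pairs of paralogs, sorted G2/M cells minus meristems (x axis, log2), with 95% intervals. The pairs lie between -0.29 and 0.35, and a pair of RPS3a genes and 2 pairs of RPS19 genes lie farthest from 0.

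The change in ratio was at most 0.35 log2 in size. A missed threshold does not show that paralogs moved alike. The 95% intervals give a range for the change in each ratio of array signals, not of transcript amounts. Each is for 1 pair and is not adjusted over the 19. The 95% interval lay within 0.5 log2 of 0 for 18 of the 19. The lowest and highest bounds over all of them were -0.47 and 0.57. The 3 pairs of RPS7 genes, on the platform side, changed by -0.02, 0.05 and 0.08 log2. The RPS14 genes, which sit on the platform near the mRNA exit, gave -0.02, 0.06 and 0.08.

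Families in which a pair came near the threshold are described next, and they were chosen after their values were seen. RPS19, a protein of the head, has 3 measured genes. RPS19 AT5G15520 read 10.38, 10.74 and 10.53 in the sorted cells, against 10.15, 10.25 and 10.24 in the meristems, a difference of 0.34 log2 (SE 0.10, limma adjusted p = 0.136). RPS19 AT5G61170 read 12.46, 12.50 and 12.54 in the sorted cells, against 12.54, 12.49 and 12.52 in the meristems, with a difference of -0.02. The arrays of the groups did not overlap for AT5G15520 and were interleaved for AT5G61170. The log2 ratio of AT5G15520 to AT5G61170 was higher by 0.35 in the sorted cells (95% interval 0.14 to 0.57, limma adjusted p = 0.0654, 0.0427 with the replicate block). The third gene, RPS19 AT3G02080, differed by 0.08. Its ratio to AT5G15520 changed by -0.26 (limma adjusted p = 0.0660).

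RPS3a lies by the platform at the mRNA exit. RPS3a AT4G34670 read 12.66, 12.78 and 12.60 in the sorted cells, against 12.43, 12.34 and 12.47 in the meristems, a difference of 0.27 log2 (SE 0.06, limma adjusted p = 0.0732) with no overlap. RPS3a AT3G04840 read 12.53, 12.70 and 12.74 in the sorted cells, against 12.70, 12.63 and 12.70 in the meristems, where the groups overlapped. The log2 ratio of AT3G04840 to AT4G34670 was -0.13, -0.08 and 0.14 in the sorted cells, against 0.27, 0.29 and 0.23 in the meristems, a change of -0.29 (limma adjusted p = 0.0654).

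**Figure D3:**
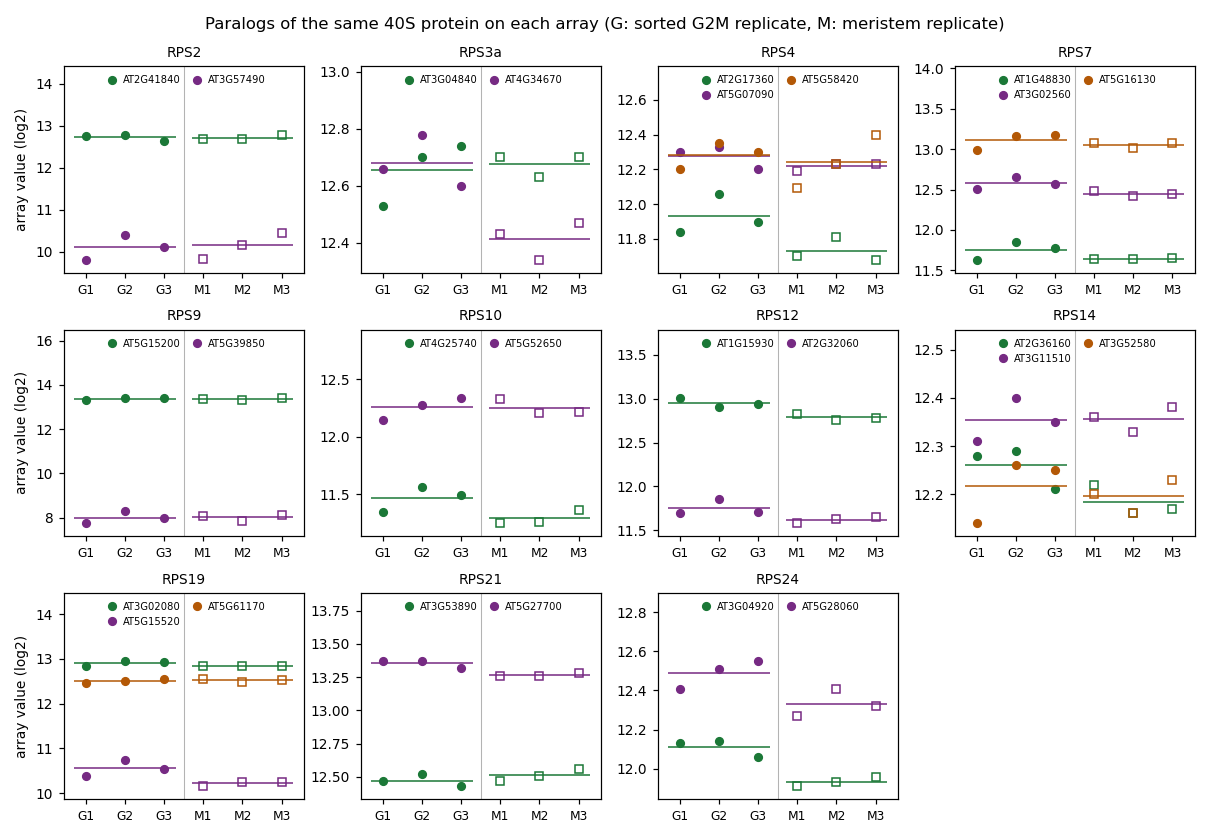
Array values (y axis, log2; each panel has its own scale) of the paralogs of the 11 proteins with at least 2 measured genes, on each sorted array (G, filled) and meristem array (M, open). Lines are group means. The lower RPS19 series and 1 of the RPS3a series stand higher in G than in M, while the means of the RPS2 and RPS9 genes differ between G and M by at most 0.04.

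The called genes, RPS24 AT3G04920 and RPS21 AT5G27700, had small differences. RPS24 AT3G04920, of the body, read 12.13, 12.14 and 12.06 in the sorted cells, against 11.91, 11.93 and 11.96 in the meristems. It was higher by 0.18 log2 (SE 0.03, limma adjusted p = 0.0281), with the groups 0.10 apart. The other RPS24 gene, AT5G28060, differed by 0.16 and was not called (limma adjusted p = 0.183), and the ratio of the 2 genes changed by 0.02. RPS21 AT5G27700, which lies by the platform, read 13.37, 13.37 and 13.32 in the sorted cells, against 13.26, 13.26 and 13.28 in the meristems. It was higher by 0.09 log2 (SE 0.02, limma adjusted p = 0.0495). RPS21 AT3G53890 differed by -0.04, with overlapping groups, and the change of the RPS21 ratio was -0.13 (limma adjusted p = 0.0984). With the replicate block neither AT3G04920 (adjusted p = 0.165) nor AT5G27700 (0.209) was called. Both lost their calls without any 1 of the arrays except sorted replicate 3.

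The remaining members are given by their place in the subunit, as known from ribosome structures of other eukaryotes. The head had 9 described genes of 5 proteins. Their median difference was 0.13 log2 and 0 were called. RPS3 AT5G35530, of the mRNA entry, read 12.63, 12.77 and 12.78 in the sorted cells, against 12.55, 12.50 and 12.49 in the meristems (0.21 log2, limma adjusted p = 0.0717). The RPS12 genes AT1G15930 and AT2G32060 differed by 0.16 and 0.13, both without overlap between the groups. The RPS10 genes AT4G25740 and AT5G52650 differed by 0.18 and 0.003. AT5G52650 read 12.15, 12.28 and 12.34 in the sorted cells, against 12.33, 12.21 and 12.22 in the meristems, and the groups overlapped. RPS20 AT3G47370 differed by -0.05, the lowest difference of the 29 members.

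The body had 9 described genes of 4 proteins, with a median difference of 0.04 and 1 call, RPS24 AT3G04920. RPS9, at the mRNA entry, pairs a high with a low array value. Its genes AT5G15200 and AT5G39850 had meristem means of 13.36 and 8.02 and differed by 0.01 and -0.02. AT5G15200 read 13.31, 13.41 and 13.40 in the sorted cells, against 13.37, 13.32 and 13.39 in the meristems. The change of their ratio was 0.03 with a 95% interval of -0.24 to 0.30. RPS2 also lies at the mRNA entry, and its genes AT2G41840 and AT3G57490 differed by 0.01 and -0.04. AT2G41840 read 12.75, 12.79 and 12.64 in the sorted cells, against 12.68, 12.68 and 12.78 in the meristems, with overlap. AT3G57490 had the widest spread of the 29 members, with 9.81, 10.41 and 10.11 in the sorted cells, against 9.83, 10.17 and 10.45 in the meristems. The RPS4 genes AT2G17360, AT5G07090 and AT5G58420 differed by 0.20, 0.06 and 0.04.

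The platform side had 11 measured genes of 5 proteins, with a median difference of 0.08 and 1 call, RPS21 AT5G27700. Besides RPS3a AT4G34670, its differences stayed at or below 0.13, the value of RPS7 AT3G02560. The smallest difference of either sign there was that of RPS14 AT3G11510, at -0.003 log2, with 12.31, 12.40 and 12.35 in the sorted cells, against 12.36, 12.33 and 12.38 in the meristems. RPS13 AT3G60770 differed by 0.08, with the groups 0.02 apart.

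The members with lower array values had a larger spread between arrays. The 3 members at a mean value of 11 or less, RPS19 AT5G15520, RPS2 AT3G57490 and RPS9 AT5G39850, differed by 0.34, -0.04 and -0.02. The 26 above 11 ranged from -0.05 to 0.27. The median SD between sorted arrays was 0.27 log2 for the 3 and 0.07 for the 26, and between meristem arrays 0.14 and 0.04. Across the 29 members, which share the same 6 arrays, level and difference had a Spearman rho of -0.14, given as a description. Other array values above 12 moved little as well. Besides the 60S list and the 40S members with a probe set of their own, 132 probe sets stood above 12. Of these, 10.6% differed by 0.3 log2 or more, with a median size of 0.08. They still include the 6 probe sets shared by several genes and further 40S genes, such as AT4G39200 (0.05 log2). The median size was 0.06 for the 22 members above 12. Of all 206 probe sets above 12, 14 (6.80%) differed by at least 0.3. Of the 26 members above 11, most of them above 12, 0 differed by at least 0.3, against 93 of all 412 probe sets above 11 (22.6%). The histone gene HTB4, at 10.59 to 10.66 in the sorted cells against 11.70 to 11.74 in the meristems, is one of those that did.

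**Figure D4:**
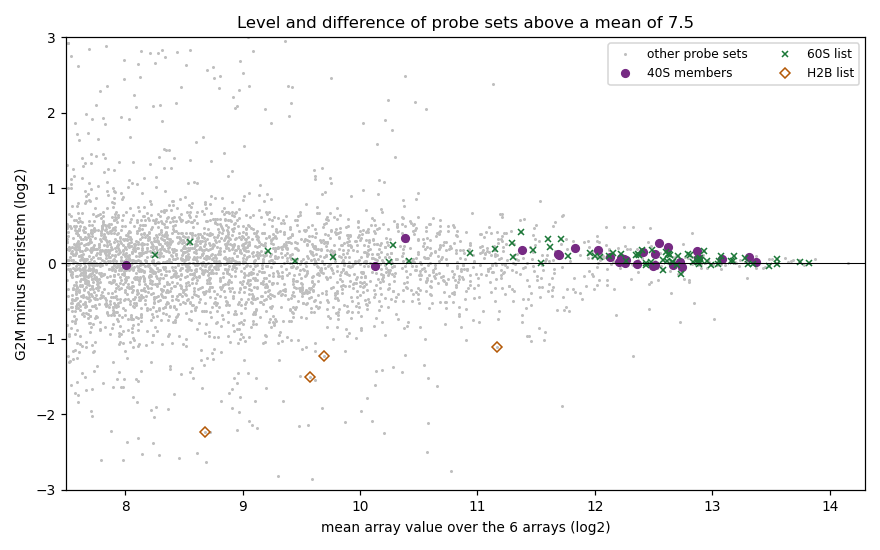
Difference between sorted G2/M cells and meristems (y axis, log2) against the mean array value (x axis, log2) for 3514 probe sets above a mean of 7.5, of which 20 lie beyond the limits of -3 and 3 shown. The 40S members and the 60S list lie close to 0 at high values, and the 4 H2B genes lie below -1.1.

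The 6 probe sets shared by several genes hold 11 further members. Their values lay between 12.86 and 13.68, their differences between -0.06 and 0.11, and 0 were called by limma (lowest adjusted p = 0.0766). No gene can be told from another within them.

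Other genes of the translation machinery were read from lists. Of 15 further 40S genes outside the members with a probe set of their own, 0 were called by limma. Over all probe sets, 4.44% were called higher and 7.06% lower. The differences of the 15 ran from -0.51 to 0.33 with a median of 0.00. Several of the 15, such as AT2G39590 and AT5G63070, read close to 2.27, the lowest deposited value, and still enter the median. The lowest difference was that of AT5G09500, also low, at 3.43 to 3.52 in the sorted cells, against 3.67, 3.69 and 4.63 in the meristems. Of 81 genes of the 60S subunit, 2 rose (2.47%), beside 4.44% of all probe sets, and 0 fell, beside 7.06%, with a median difference of 0.05. The median array value of the 81 was 12.44. The sorted arrays lay wholly above the meristem arrays for 22 of them (27.2%). That share was 14.4% over all probe sets and 27.9% over those above 11. The 2 were AT4G25890, for a protein of the acidic stalk (0.24 log2, limma adjusted p = 0.0400, 0.187 with the replicate block), and AT1G08360, for a protein at the tRNA exit (0.17 log2, limma adjusted p = 0.0240, 0.0630 with the block). Their sorted arrays read 10.36, 10.47 and 10.36 and 12.97, 13.03 and 13.04, against 10.14, 10.12 and 10.21 and 12.82, 12.84 and 12.87 in the meristems. Of 40 listed translation initiation factors 11 were measured. Of these, 1 rose (9.09%), beside 4.44% of all probe sets, and 1 fell (9.09%), beside 7.06%. AT5G54940, of the eIF1 family that scans for the start codon, read 10.87, 8.12 and 9.24 in the sorted cells, against 5.64, 4.80 and 4.78 in the meristems (4.34 log2, SE 0.81, limma adjusted p = 0.0423, 0.0969 with the replicate block). AT4G27130, of the same family, read 9.95, 9.90 and 9.88 in the sorted cells, against 10.18, 10.15 and 10.12 in the meristems (-0.24 log2, limma adjusted p = 0.0116, 0.0398 with the block). From the list for the target of rapamycin pathway and S6 kinase, 1 gene was measured, RAPTOR1. Of the nuclear genes for the plastid 30S subunit 2 were measured. None of these 3 was called by limma.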

How the data were processed

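The authors deposited log2 values, 1 per probe set and array, for 6 arrays; per the submitters' processing notes they were made with GCRMA, which corrects background and normalizes across arrays. Its version and the genome build are not given in the sources used here, so no coordinates are printed. Of 22810 probe sets, 64 controls were left out. Of the 22746 probe sets tested, 13513 have a single gene in the platform annotation, 503 have more than one and 8730 are unnamed here. Of the 13513, 13436 were matched to the TAIR10.1 RefSeq gene table by gene identifier. No member had more than 1 probe set.

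Groups were compared with limma 3.58.1 in R 4.3.3 (lmFit, eBayes) on the deposited values, with no filter or further normalization. Paralog ratios were fitted in the same way over the 19 pairs. Of 33 members with a probe set of their own, 4, of 3 proteins, are not reported here; they stayed in the fit over all probe sets and enter no count, median, pair or figure. The scripts were tested on simulated data. The members, lists, protein assignments and the grouping by place in the subunit were chosen with earlier results of these data known, and the value of 11 that splits the members by level was chosen after seeing them. Values on all arrays are printed for called members and families with a called pair by rule, and for others by choice after seeing them; from the lists, up to 2 called genes each. The series calls the samples biological replicates, and p-values measure the spread between them. Arrays have no read depth; 3 per group limits the precision.

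Arrays with the same replicate number deviated together across probe sets with above-median signal (r = 0.12, 0.25 and 0.11 for numbers 1, 2 and 3), so a fit with the number as a block is printed beside the results it changes; for the genes of the lists that fit was added after seeing the data. The labels do not say what the number shares between the groups. The planned search of promoters and proteins was not done, as no sequences were used here.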

Additional observations from a re-analysis of the deposited data

Results flagged for a closer look

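The control probe set for 25S ribosomal RNA, which is outside the comparisons above, was higher in the sorted cells by 1.54 log2 (13.10, 12.69 and 12.83 in sorted cells, against 11.40, 11.29 and 11.32 in meristems), and the groups did not overlap. It was singled out as a signal in data that no comparison used. The ratio of 3' to 5' probe sets differed by -0.02 log2 between the groups for actin and by 0.10 for GAPDH. No test was run on these values.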

How the results depend on the processing

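Of 29 members, 2 were called higher. The count was 0 with the replicate block, the trended robust prior and the filter at the median level. It was 4 after centring on expressed probe sets, 6 with centring on reference genes and 11 with array weights. Calls higher over all probe sets moved too, from 1009 to 516 with the trended prior and to 1630 of 11372 with the filter. They were 1423 with centring on expressed probe sets, 2460 with centring on reference genes and 2994 with array weights. When 1 array was left out, the count of members ranged from 0 to 3, and that over all probe sets from 323 to 1752. Since only 1 sorted array carried spike-ins, as all meristems did, the fit with the spike-ins as the block sets sorted replicate 1 alone against the 3 meristems, and its spread is assumed to be that of the other arrays. The count of members called lower was 0, and 1 (RPS14 AT3G11510, -0.07 log2, adjusted p = 0.0229) with quantile normalization. The median difference of 0.08 was 0.037 when the spike-ins were the block and 0.14 with centring on reference genes, which moved the median of all probe sets by 0.06. The count of pairs with an unequal difference was 0, and it was 1 with the replicate block, 5 with the trended robust prior, 5 with quantile normalization (added after seeing the data) and 3 with array weights, and 0 to 1 when 1 array was left out. Leaving out 1 array lowers the degrees of freedom; the causes of the other changes were not tested. Among the members and pairs, the replicate block changed no other call than those given with the results. Of the 22 called genes of the lists 6 were also called with the block, and 0 others were. A pair of counts was recomputed after seeing the data: 16 to 29 members had a positive difference (22 in the fit reported), and 11 to 17 had no overlap with the sorted arrays above (17 with centring on reference genes). These 2 counts were not computed over all probe sets in the alternative settings. Over all probe sets, the replicate block called 79 higher and 156 lower, against 1009 and 1605 without it. Array weights were estimated gene by gene, since the default estimate did not converge; sorted replicate 1 had the lowest (0.252). Taking the lowest-mean probe set changes nothing, as each member has 1.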
